A study of Drosophila melanogaster with 73 samples.

Results

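The response of the adult fly gut to induction of Foxo alone was examined in 6 gut libraries, taken from a series with 73 labelled libraries of which 70 have a column in the count tables used here. They were chosen by genotype and tissue: every gut library of Drosophila melanogaster females that carried UAS-Foxo as the only inducible transgene, 3 from induced and 3 from uninduced flies. The series compared 7 genotypes, in which the S106 GeneSwitch driver switched on Foxo, AopACT, PntP1 or their combinations, in guts and in abdominal fat bodies. GeneSwitch is a form of the yeast activator Gal4 that needs a steroid to act, and S106 is described as active in gut and fat body of the same animals, although foxo mRNA of the induced and uninduced fat body libraries overlapped. All flies were females of an outbred, Wolbachia-free Dahomey stock with the w1118 mutation, mated for 48 h. Induced females were then fed 200 µM RU486, the steroid that activates GeneSwitch, for 6 days, and uninduced females of the same genotype were fed the ethanol carrier alone for the same time. Each library is a pool of dissected guts with the Malpighian tubules taken off, and each induced library has an uninduced partner in the same experimental block (A, C or D). Flies with the driver and no transgene were not analysed here, so within these 6 libraries the action of Foxo and that of RU486 cannot be told apart. The genotypes without Foxo are set beside the Foxo flies further on. Their induced flies also ate RU486 but expressed AopACT, PntP1 or both, so they do not show RU486 alone.

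FOXO is the forkhead transcription factor at the end of the insulin pathway. Insulin signalling, through the kinase Akt, keeps it out of the nucleus, and when nutrients or insulin are low it enters the nucleus and turns on genes of stress resistance, slowed growth and fuel use. Its best known targets in the fly are Thor, which encodes the translation repressor 4E-BP, and InR, the insulin receptor. The adult gut is made mainly of enterocytes, which secrete the enzymes that digest starch, protein and fat and take up the products, so that digestive enzyme and transporter genes make up much of its messenger RNA.

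Total counts lay between 2279838 and 4195937 in these libraries, and 7812 of 10366 genes had enough counts to be tested. Enterocyte markers summed to between 16731 and 29778 CPM (read counts scaled to a common library size) and enteroendocrine markers to between 349 and 513 CPM. Both ranges overlapped between induced and uninduced guts. Within blocks the enteroendocrine sum was higher in every induced library, and the enterocyte sum only in that of block C. Counts from the mitochondrial genome made up between 5.24% and 9.26% of a library. No pair of replicates was one library given a second time, since the chi-square over genes was at least 16.6 per degree of freedom. Each gene's fold change is induced over uninduced within blocks, and a gene was called at an adjusted p under 0.1 (edgeR, adjusted over all genes tested). The p-values measure the spread between pools of guts.

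The driven gene was examined first, as a check of the induction labels. The level of foxo (chromosome 3R, 14056945 to 14087978) was 42.9, 80.0 and 65.7 CPM in uninduced replicates 1 to 3 and 199.8, 392 and 393 CPM in the induced replicates. Every induced library was above every uninduced one. The log2 fold change was 2.37 ± 0.14 SE (edgeR adjusted p = 1.58e-04, n = 3 and 3), and induced replicate 1 had the lowest foxo of the induced libraries as its partner had of the uninduced ones. The library number of uninduced gut replicate 1 belongs in the fat body to an induced Foxo+PntP1 library. That of fat body Foxo uninduced replicate 1 belongs in the gut to an induced Foxo+PntP1 library. Both were used as labelled, and a foxo level in the uninduced range does not identify the genotype.

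Which genes changed with it? In all, 354 genes were called, 4.53% of those tested, with 188 higher (2.41%) and 166 lower (2.12%). Counts of called genes in the lists below are to be read against these shares. The median log2 fold change over all tested genes was 0.01. Of the called genes, 80 rose and 53 fell by at least 1 on the log2 scale, and 353 moved the same way in all 3 pairs, which a paired fit largely fixes. Of the 354 called genes 166 kept the call whichever single library was left out, and 30 were called in all 3 of the 6-library fit, the fit of all gut libraries and the fit without the block term. Induced and uninduced libraries did not overlap for 866 genes (11.1% of those tested), of which 266 were called. The count depends on the fit. A fit of all 36 gut libraries has one larger spread, shared block terms and more tested genes, and which of these mattered was not tested. It called 47 of 9270 genes (0.507%), of which 46 are among the 354. Without the block term the 6-library fit called 51, all of them among the 354. DESeq2 called 238 genes and limma voom 363. Leaving out induced replicate 3 raised the count to 597. The genes described as the 12 highest and 12 lowest below were called in both the 6-library fit and the fit of all gut libraries. They were also chosen for groups that do not overlap, so their separation is no result.

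**Figure D1:**
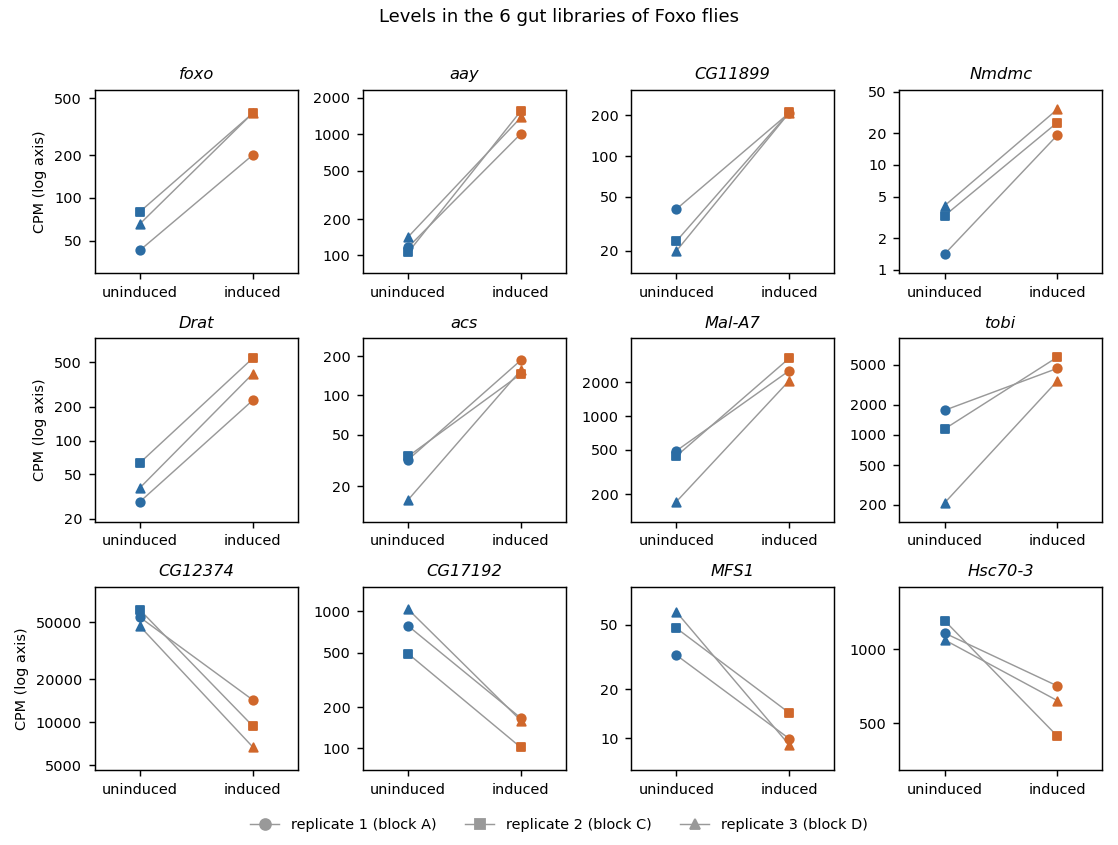
Level of 12 genes in CPM (log axis) in each of the 6 gut libraries, with a line joining the uninduced (blue) and induced (orange) library of a block and a marker shape per replicate. Induced and uninduced libraries do not overlap in any panel. Genes of the 12 highest and 12 lowest were chosen for this, and it held for 11.1% of all tested genes. The levels of tobi and Mal-A7 are lowest in uninduced replicate 3 (209.6 and 172 CPM).

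The largest fold change of the 12 highest genes was in the synthesis of serine, the amino acid that feeds the folate one-carbon pool. Serine is made from a glycolytic intermediate in a short chain of enzymes: phosphoglycerate dehydrogenase (CG6287), phosphoserine aminotransferase (CG11899) and phosphoserine phosphatase (aay). The last step rose most. The level of aay (chromosome 3L, 9423253 to 9424781) was 117, 106 and 142 CPM in the uninduced and 1012, 1560.4 and 1379 CPM in the induced libraries, with a log2 fold change of 3.43 ± 0.18 SE (edgeR adjusted p = 1.29e-04). For CG11899 (chromosome 3R, 29200454 to 29201770) the uninduced libraries had 40.5, 23.5 and 19.9 CPM and the induced ones 209, 210.5 and 209 CPM (mean 209 ± 1.04 SD, n = 3). Its log2 fold change was 2.97 ± 0.20 SE (edgeR adjusted p = 3.94e-04), and it overlaps Mesh1 on the other strand. The first enzyme of the chain did not pass, with CG6287 at 62.7, 107 and 101 CPM uninduced and 68.7, 111 and 101 CPM induced (edgeR log2 fold change 0.06 ± 0.12 SE, adjusted p = 0.914). Thus 2 of 3 serine synthesis genes were called, both higher and in every setting run, beside 2.41% of all genes called higher.

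Among folate one-carbon enzymes, which carry the carbon units that serine donates, 2 of 7 tested genes were called, both higher, beside 2.41% of all genes. Nmdmc, a mitochondrial folate dehydrogenase and cyclohydrolase, went from 1.41, 3.28 and 4.09 CPM to 19.2, 25.3 and 33.8 CPM (edgeR log2 fold change 3.10 ± 0.24 SE, adjusted p = 7.09e-04). Shmt, the enzyme that passes carbon from serine to folate, went from 5.18, 11.3 and 7.88 CPM to 12.0, 31.9 and 23.9 CPM, a log2 fold change of 1.47 ± 0.20 SE (edgeR adjusted p = 0.00768). Induced replicate 1 was the lowest induced library for both genes. In the fit of all gut libraries Nmdmc was called (edgeR adjusted p = 0.00826) and Shmt was not (0.669). The list median was 0.31. In the methionine cycle and transsulphuration list 1 of 9 genes was called, Cth, the last enzyme on the way from serine and homocysteine to cysteine, at 127, 96.9 and 91.7 CPM uninduced and 200.2, 141 and 144 CPM induced (edgeR log2 fold change 0.62 ± 0.12 SE, adjusted p = 0.0331). Without uninduced or induced replicate 1 Cth was no longer called (highest edgeR adjusted p 0.162).

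The transcription factor gene crc, the fly ATF4, which is known in other animals for raising serine and folate enzymes when amino acids are short, had a log2 fold change of 0.08 ± 0.13 SE (edgeR adjusted p = 0.871). Of 17 genes in the list of its stress response branch 4 were called, all higher, beside 2.41% of all genes. They were aay, CG11899, Nmdmc and Thor, with a list median of 0.19. None of 23 aminoacyl-tRNA synthetase genes was called, and their median was -0.07. These are mRNA levels, and whether crc took part in the response was not tested.

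The next list held enzymes that cleave starch and disaccharides. Of 15 tested genes for maltases, amylases and the glucosidase tobi, 8 were called, all higher, against 2.41% of all genes. In 10 of the 15 the induced libraries were all above the uninduced ones, beside 429 of all 7812 tested genes. The list median was 0.90. The other 7 did not pass, and among them Amyrel and CG33080 had log2 fold changes of -0.93 and -0.26. In the fit of all gut libraries 3 genes of the list were called (Mal-A7, Mal-A8 and tobi), and without the block term 1 was, Mal-A7. The Mal-A genes lie side by side on chromosome 2R between 8449664 and 8473961, and 5 of the 8 were called. Mal-A7 changed most, from 490.2, 439 and 172 CPM to 2544, 3286 and 2069 CPM (edgeR log2 fold change 2.95 ± 0.23 SE, adjusted p = 7.09e-04), and its neighbour Mal-A8 went from 517, 402 and 151 CPM to 1440.3, 1407 and 945 CPM (1.97 ± 0.22 SE, edgeR adjusted p = 0.00367). Uninduced replicate 3 was the lowest library for both, and its induced partner the lowest induced one. Mal-A1, at the other end of the cluster, went from 6868, 5178 and 2841 CPM to 12890.0, 15699.8 and 8450.1 CPM (1.36 ± 0.18 SE, edgeR adjusted p = 0.00768). Mal-A6 rose by a log2 fold change of 1.39 ± 0.22 SE and Mal-A2 by 0.72 ± 0.15 SE (edgeR adjusted p = 0.0135 and 0.0509). The call of Mal-A2 ended without uninduced replicate 2 (edgeR adjusted p = 0.129). The genes in the middle of the cluster did not pass, with log2 fold changes of 0.33 ± 0.18 SE for Mal-A3, 0.58 ± 0.19 SE for Mal-A4 and 1.49 ± 0.41 SE for Mal-A5 (edgeR adjusted p = 0.485, 0.213 and 0.120).

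**Figure D2:**
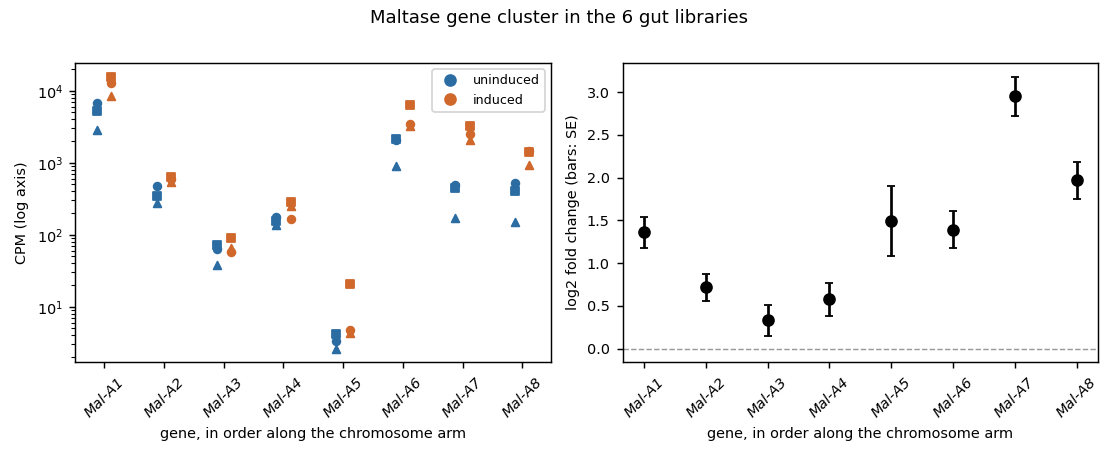
The 8 Mal-A maltase genes in their order along chromosome arm 2R, with CPM in each uninduced (blue) and induced (orange) gut library on a log axis, marker shapes as replicates 1 (circle), 2 (square) and 3 (triangle), and the log2 fold change with its SE. The fold change is largest at Mal-A7 and smallest at Mal-A3.

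Both amylase genes rose, Amy-d from 138, 127 and 109 CPM to 203, 265 and 226 CPM (edgeR log2 fold change 0.90 ± 0.14 SE, adjusted p = 0.0147) and Amy-p by 0.65 ± 0.16 SE (edgeR adjusted p = 0.0877), whose call ended without uninduced replicate 2 or 3 or induced replicate 2. Their sequences are close to identical, and counts of shared reads may have gone to either. The insulin-regulated gene tobi (chromosome 3R, 25344761 to 25346921) had 1758, 1145 and 209.6 CPM uninduced and 4603, 5954 and 3447 CPM induced, a log2 fold change of 2.58 ± 0.43 SE (edgeR adjusted p = 0.0200). The lowest induced library was above the highest uninduced one, and the uninduced libraries were spread widely (mean 1038 ± 780.0 SD, n = 3). Without the block term tobi was not called (edgeR adjusted p = 0.292). Leaving out single libraries gave between 7 and 10 higher in this list.

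Strand bears on this group. The sources used here do not say whether counting took strand into account, and 104 of the 354 called genes overlap an exon of a gene on the other strand, which for 40 of them was called in the same direction. The cytochrome gene Cyp4e1 (log2 fold change 1.5) overlaps Mal-A1, the receptor gene mtt (2.70) overlaps Mal-A8, and rha (2.62) overlaps tobi. The levels of rha were 146, 89.1 and 12.6 CPM uninduced and 386, 467 and 294 CPM induced, so that it was lowest in uninduced replicate 3 as tobi was. For mtt they were 5.66, 5.63 and 2.92 CPM and then 47.1, 17.5 and 37.0 CPM. For these pairs reads of one gene cannot be told apart from reads of the other.

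Genes of detoxification were examined in 3 lists, to be read against the 2.41% of all genes that were called higher. Of 29 tested glutathione transferase genes, whose products join glutathione to reactive compounds, 8 were called and all were higher. The list median was 0.59, and 2 were called higher in the fit of all gut libraries and 3 without the block term. GstD9 went from 26.9, 36.1 and 62.5 CPM to 172, 95.4 and 267 CPM (edgeR log2 fold change 2.03 ± 0.22 SE, adjusted p = 0.00360). GstT4 went from 596, 382 and 357 CPM to 1016, 1010.0 and 997 CPM (1.22 ± 0.17 SE, edgeR adjusted p = 0.00794), its induced libraries lying closer together than the uninduced ones. Both were also called in the fit of all gut libraries. GstE6 and GstE8 of the GstE cluster had log2 fold changes of 1.34 ± 0.20 SE and 1.02 ± 0.16 SE (edgeR adjusted p = 0.0128 and 0.0133). Leaving out single libraries gave between 6 and 12 higher for this list, with a median between 0.30 and 0.79.

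Of 60 cytochrome P450 genes 8 were called higher and 1 lower, with a median of 0.03, and only 1 was called in the fit of all gut libraries and 1 without the block term. Cyp6g2, which overlaps Cyp6g1 on the other strand, went from 21.2, 27.0 and 23.1 CPM to 54.3, 51.6 and 55.3 CPM (edgeR log2 fold change 1.17 ± 0.15 SE, adjusted p = 0.00735). Among 26 UDP-glucuronosyltransferase genes, whose products attach sugars to foreign compounds, 3 were called, all higher, with a median of -0.02. The genes were Ugt301D1 (log2 fold change 1.61 ± 0.20 SE), Ugt35C1 (1.15 ± 0.14 SE) and Ugt49B1 (1.68 ± 0.30 SE), with edgeR adjusted p = 0.00506, 0.00532 and 0.0263, and for Ugt35C1 the induced and uninduced libraries overlap. In the fit of all gut libraries 1 gene of the list was called, and 1 without the block term. Of the antioxidant list 1 of 20 genes was called higher and 1 lower. The log2 fold change was 0.78 ± 0.18 SE for Trxr1, thioredoxin reductase, and -0.83 ± 0.14 SE for Gclm, the modifier subunit of the enzyme that starts glutathione synthesis (edgeR adjusted p = 0.0681 and 0.0203). The call of Trxr1 ended without uninduced or induced replicate 1. For the P450 genes, leaving out single libraries gave between 5 and 8 higher and between 1 and 11 lower.

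Of the 12 highest genes, those outside these pathways included the largest change after aay. Drat went from 28.3, 63.1 and 37.7 CPM to 229, 544 and 395 CPM (edgeR log2 fold change 3.18 ± 0.14 SE, adjusted p = 5.85e-05). Replicate 2 was highest in both groups and replicate 1 lowest. The gene acs went from 32.0, 34.0 and 15.8 CPM to 187, 146 and 156 CPM (edgeR log2 fold change 2.61 ± 0.21 SE, adjusted p = 9.17e-04). CG34040 went from 199.8, 124 and 31.2 CPM to 734, 593 and 412 CPM (2.57 ± 0.31 SE, edgeR adjusted p = 0.00477), and like tobi it was lowest in uninduced replicate 3. GILT2, of the lysosomal thiol reductase family, and Hf rose from lower levels. GILT2 had 7.07, 2.58 and 5.26 CPM and then 20.4, 22.2 and 35.0 CPM (2.48 ± 0.29 SE, edgeR adjusted p = 0.00464), and Hf 1.89, 2.35 and 2.34 CPM and then 10.8, 13.1 and 11.1 CPM (2.39 ± 0.30 SE, edgeR adjusted p = 0.00603).

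Genes of protein and fat digestion went both ways, and most of them were not called. The carboxypeptidase gene CG12374 (chromosome 2R, 12762113 to 12763825), which trims amino acids from the ends of peptides, went from 54163, 61014 and 46887 CPM to 14324, 9421 and 6716 CPM. Every induced library was far below every uninduced one. The log2 fold change was -2.47 ± 0.22 SE (edgeR adjusted p = 0.00126). Of 12 carboxypeptidase genes 2 were called lower and 1 higher, with a list median of 0.00, beside 2.12% lower and 2.41% higher of all genes. The log2 fold change was -0.59 ± 0.14 SE for CG17633 and 0.88 ± 0.15 SE for CG18417 (edgeR adjusted p = 0.0738 and 0.0210). The CG18417 call ended without uninduced or induced replicate 1, and that of CG17633 held only when induced replicate 3 was the library left out.

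The lipase-family gene CG17192 (chromosome 3R, 27017180 to 27018287) went from 784, 491 and 1038 CPM to 166, 101 and 159.5 CPM (edgeR log2 fold change -2.41 ± 0.15 SE, adjusted p = 1.92e-04). Replicate 2 was the lowest library of both groups. The nearby CG6295 went from 1259, 1425 and 2444 CPM to 416, 694 and 476 CPM (-1.66 ± 0.23 SE, edgeR adjusted p = 0.00837). Another member of the same stretch moved the other way, CG6283, from 40.1, 20.9 and 21.3 CPM to 67.9, 56.3 and 72.8 CPM (1.32 ± 0.20 SE, edgeR adjusted p = 0.0117). Of 16 lipase genes, with a median of -0.01, 3 were called lower and 1 higher, beside 2.12% lower and 2.41% higher of all genes. The third lower one was CG2772 (-0.45 ± 0.12 SE, edgeR adjusted p = 0.0936), whose call held only when induced replicate 3 was the library left out.

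Serine proteases of the Jonah and trypsin families went both ways, with 4 of 32 called lower and 2 higher and a median of -0.13. Over all genes 2.12% were called lower and 2.41% higher. Jon99Ci went from 529.8, 359 and 475 CPM to 182, 133 and 191 CPM (edgeR log2 fold change -1.43 ± 0.12 SE, adjusted p = 0.00111), and epsilonTry from 3407, 3557 and 3317 CPM to 1759.6, 2437 and 1630.3 CPM (-0.84 ± 0.15 SE, edgeR adjusted p = 0.0249). Ser6 fell by 0.71 on the log2 scale (SE 0.12, edgeR adjusted p = 0.0226), a call that ended without uninduced or induced replicate 1. In the opposite direction Jon25Biii went from 5790.5, 7194 and 8046 CPM to 13477, 13396 and 14698 CPM (0.99 ± 0.15 SE, edgeR adjusted p = 0.0135). Members of these families resemble each other, so reads may be split between them. Leaving out single libraries gave between 3 and 6 lower and between 1 and 7 higher. None of the 32 was called in the fit of all gut libraries.

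Transporter genes were among the lowest as well. MFS1, of the major facilitator family, went from 32.5, 47.6 and 59.9 CPM to 9.99, 14.4 and 9.15 CPM (edgeR log2 fold change -2.03 ± 0.23 SE, adjusted p = 0.00383). The nucleoside transporter gene CNT2 went from 279, 149 and 266 CPM to 93.1, 72.3 and 123 CPM (-1.24 ± 0.14 SE, edgeR adjusted p = 0.00441), and Mrp5, of the ABC exporter family, from 635, 636 and 806 CPM to 308, 274 and 364 CPM (-1.14 ± 0.12 SE, edgeR adjusted p = 0.00360). Induced and uninduced libraries stayed apart in all of these. Of the 18 tested genes on a list of membrane transporters, drawn up with earlier results of these data known, 4 were called lower and 3 higher. The other lower ones were slif, a cationic amino acid transporter (log2 fold change -0.82 ± 0.13 SE), and the zinc transporter Zip89B (-1.18 ± 0.22 SE), with edgeR adjusted p = 0.0178 and 0.0290. The higher ones were the drug exporters Mdr49 (1.11 ± 0.13 SE) and MRP (0.97 ± 0.14 SE) and the zinc transporter ZnT77C (0.47 ± 0.12 SE), with edgeR adjusted p = 0.00441, 0.0116 and 0.0877. Of these, MRP was also called in the fit of all gut libraries, and the ZnT77C call ended without uninduced or induced replicate 1 or 2.

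Further genes of the 12 lowest were Diedel3, which went from 514, 515 and 748 CPM to 167, 123 and 80.4 CPM (edgeR log2 fold change -2.28 ± 0.27 SE, adjusted p = 0.00464), and CG32444, annotated as an aldose epimerase, which went from 12.7, 54.7 and 47.9 CPM to 1.6, 12.5 and 8.75 CPM (-2.35 ± 0.21 SE, edgeR adjusted p = 0.00126). For CG32444 replicate 1 was low in both groups, so that its uninduced library lies next to the highest induced one, and an antisense RNA that overlaps it was called lower too. The long noncoding RNA lncRNA:CR44310 (-1.59), CG1946 (-1.36), CG16965 (-1.30), the acetyltransferase gene AANATL3 (-1.26) and CG31259 (-1.26) complete the 12. Their edgeR adjusted p lay between 0.00246 and 0.0411.

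A pair of groups was added to the lists after the called genes had been seen, and their counts describe what was seen there. Of 33 tested genes for protein folding in, and export from, the endoplasmic reticulum 12 were called and all were lower, with a median of -0.36. Over all genes 2.12% were called lower. The chaperone gene Hsc70-3, the fly BiP, went from 1161, 1304 and 1089 CPM to 708, 443 and 617 CPM (edgeR log2 fold change -1.03 ± 0.18 SE, adjusted p = 0.0232). The co-chaperone gene P58IPK went from 113, 199 and 161 CPM to 52.3, 70.7 and 90.7 CPM (-1.15 ± 0.15 SE, edgeR adjusted p = 0.00737), and the disulphide isomerase gene CaBP1 and the Hsp90 relative Gp93 had log2 fold changes of -0.98 ± 0.15 SE and -0.96 ± 0.14 SE (edgeR adjusted p = 0.0137 and 0.00881). None of the 12 was called in the fit of all gut libraries or without the block term, and leaving out single libraries gave between 6 and 16 lower. Of 5 metallothionein genes, whose products bind metal ions, 3 were called higher, beside 2.41% of all genes. MtnD went from 71.6, 56.8 and 137 CPM to 200.2, 185 and 181 CPM (edgeR log2 fold change 1.19 ± 0.23 SE, adjusted p = 0.0378). In the fit of all gut libraries no metallothionein was called.

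Genes that were followed by qRT-PCR in the study, and genes of the insulin pathway, came next. Thor went from 736, 610.1 and 763 CPM to 1448, 1235 and 1319 CPM (edgeR log2 fold change 0.93 ± 0.13 SE, adjusted p = 0.00815), with all induced libraries above the uninduced ones. In the fit of all gut libraries it was not called (edgeR adjusted p = 0.256). Adh, alcohol dehydrogenase, which shares reads with the overlapping gene Adhr, went from 336, 472 and 518 CPM to 555, 865 and 799 CPM (edgeR log2 fold change 0.74 ± 0.12 SE, adjusted p = 0.0200) and was not called in that fit either (0.702). PGRP-SC2, whose product breaks down peptidoglycan of gut bacteria, had 1232, 934 and 1008 CPM and then 927, 658 and 829.9 CPM, a log2 fold change of -0.40 ± 0.13 SE that did not pass (edgeR adjusted p = 0.177). The insulin-like peptide gene Ilp6 was at or below 0.953 CPM (not scaled between libraries) in each library and was not tested. The study followed Ilp6 in the fat body, so its level in the gut does not bear on that result. With aay and tobi, 4 of the 5 tested genes of the qRT-PCR set were called. The study had selected those genes from the same RNA-seq experiment, which leaves their count without independent weight.

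Of 25 insulin and TOR pathway genes 2 were called, foxo itself and Thor, with a list median of 0.03. InR went from 6.60, 12.4 and 22.5 CPM to 24.4, 27.5 and 25.9 CPM. All induced libraries were above the uninduced ones, but it did not pass (edgeR log2 fold change 0.95 ± 0.28 SE, adjusted p = 0.149). In the list of gluconeogenesis, trehalose and glycogen 2 of 13 genes were called higher, both encoding phosphoenolpyruvate carboxykinase, which starts glucose synthesis. Pepck1 went from 26.4, 56.8 and 82.3 CPM to 148, 230.2 and 209 CPM (edgeR log2 fold change 1.91 ± 0.20 SE, adjusted p = 0.00358). It has identical counts to the overlapping gene CG45087, so its reads were counted for both. Pepck2, next to it, went from 4.24, 6.80 and 7.88 CPM to 16.0, 19.7 and 21.1 CPM (1.57 ± 0.22 SE, edgeR adjusted p = 0.00815). In the same list fbp, the fructose bisphosphatase gene, was called lower (-0.66 ± 0.15 SE, edgeR adjusted p = 0.0670), a call lost without uninduced or induced replicate 1 or 2. In glycolysis 1 of 12 genes was called, the hexokinase gene Hex-A, from 109, 165 and 142 CPM to 70.3, 102 and 87.9 CPM (-0.67 ± 0.12 SE, edgeR adjusted p = 0.0226).

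No gene was called in several large groups. Of 84 cytosolic ribosomal protein genes none was called, with a median of 0.03 and log2 fold changes between -0.25 and 0.98. There was likewise no call among 72 mitochondrial ribosomal protein genes (median 0.11), 67 nuclear-encoded respiratory chain genes (0.03), 24 mitochondrially encoded transcripts (0.26) or 25 autophagy genes (-0.12). Proteasome subunits had a median of 0.30 and 30 of 32 were above 0, yet only Prosalpha3 and Prosbeta1 were called, with log2 fold changes of 0.53 ± 0.12 SE and 0.50 ± 0.12 SE (edgeR adjusted p = 0.0713 and 0.0796), and both calls ended when single libraries were left out. Smaller lists had between 1 and 3 calls each, beside 4.53% called among all genes. Of 11 peptidoglycan recognition and antimicrobial peptide genes 2 were called lower, PGRP-SC1b and the immune inhibitor pirk (-1.08 ± 0.25 SE and -0.93 ± 0.22 SE, edgeR adjusted p = 0.0714 and 0.0776), and neither call held without uninduced or induced replicate 2. In the heat shock list 1 of 10 genes was called higher, the small heat shock gene l(2)efl (0.94 ± 0.15 SE), and 2 lower, Hsc70-3 and DnaJ-1. Among 25 genes of lipid storage and oxidation 1 was called, the acyl-CoA synthetase gene Acsl (-0.60 ± 0.13 SE, edgeR adjusted p = 0.0589), and its call held only without induced replicate 3. Of 5 ETS family genes pnt was called higher (0.64 ± 0.14 SE, edgeR adjusted p = 0.0609), from 23.1, 30.0 and 35.3 CPM to 39.6, 43.2 and 55.7 CPM, a call that ended without replicate 1 of either group or uninduced replicate 3. Medians under leave-one-out stayed between 0.21 and 0.34 for the proteasome and between 0.01 and 0.04 for the cytosolic ribosomal proteins.

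**Figure D3:**
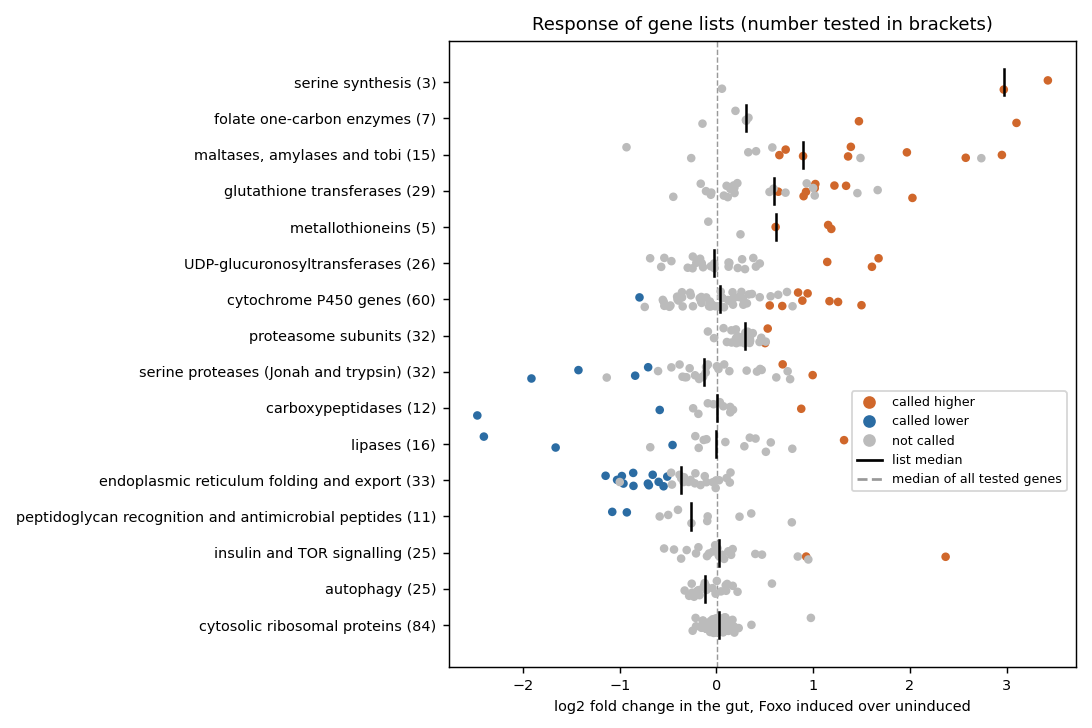
Log2 fold change of each tested gene in 16 lists, induced over uninduced in the 6 gut libraries, with called genes in orange (higher) or blue (lower), a black bar at the list median and a dashed line at the median of all tested genes (0.01). Serine synthesis (median 2.97), the maltase list (0.90) and glutathione transferases (0.59) lie to the right, and endoplasmic reticulum folding (-0.36) to the left.

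Markers of other cell types that a dissected gut can carry also moved, and calls among them are to be read beside the 2.41% of all genes called higher. Visceral muscle markers summed to 2562, 2381 and 2648 CPM in the uninduced and 3460, 3021 and 3569 CPM in the induced libraries, which do not overlap. All 14 of them had a fold change above 0 (median 0.39), and 3 were called, Act87E (log2 fold change 0.92 ± 0.15 SE), Act57B (0.60 ± 0.12 SE) and Mlc2 (0.49 ± 0.12 SE), with edgeR adjusted p = 0.0178, 0.0411 and 0.0843, of which the Mlc2 call ended with any library left out. The 6 fat body markers summed to 315, 870.3 and 1540 CPM uninduced and 375, 2232 and 2092 CPM induced. Those sums are mostly the yolk protein genes, while Lsp2 and Fbp2 were at or below 2.19 CPM. The groups overlap, but each induced sum was above that of its uninduced partner. None of 4 tested fat body markers was called, although all 4 had a fold change above 0 (median 0.66). DESeq2 called 2 of them higher, and leaving out single libraries gave between 0 and 3 higher. The 14 ovary and follicle cell markers summed to 41.5, 40.6 and 243 CPM uninduced and 159, 176 and 51.3 CPM induced, so the groups overlap. In it 3 of 6 tested genes were called higher, the eggshell gene Cp18, which went from 1.89, 0.469 and 0.292 CPM to 7.59, 6.57 and 5.17 CPM, and the germline genes osk and exu, whose calls ended when single libraries were left out. The spermathecal gene Send1 was at 23.2 CPM in induced replicate 1 and at or below 2.39 CPM in the others. Of intestinal stem cell and enteroblast (2 tested), enteroendocrine (11), hemocyte (3) and neuron (3) markers none was called. Fold changes were above 0 for 10 of the 11 enteroendocrine markers (median 0.22). One of 7 enterocyte markers was called, the amylase gene Amy-p, and one of 7 Malpighian tubule markers, Irk1, was lower (log2 fold change -0.49). In whole organs fewer cells of a type and less RNA per cell cannot be told apart, and the part of these tissues in the gene lists above was not tested.

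Do flies without a Foxo transgene respond in the same way when induced? In the gut the series has 15 libraries of such genotypes (AopACT, PntP1 and AopACT+PntP1), which share no library with the Foxo flies. RU486 switched on AopACT, PntP1 or both in all of these genotypes. The action of RU486 and that of these factors therefore cannot be told apart, in a shared response or in a difference. Their mean response called 131 genes higher (1.41%) and 156 lower (1.68%) of 9270. Many genes that were lower with Foxo were lower there too: of the 166 called lower with Foxo, 32 were called lower and 6 higher in the mean response of those genotypes, 122 had the same sign, and their median log2 fold change was -0.28. Of the 12 lowest genes 7 were called lower there and 11 had the same sign. Of the 188 genes called higher with Foxo 11 were called higher and 10 lower there, 88 had the same sign and the median was -0.04.

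The carboxypeptidase gene CG12374 showed this in each genotype without Foxo. It had 50611, 32171 and 38777 CPM in uninduced and 10598 and 7696 CPM in induced guts of AopACT flies, and log2 fold changes of -2.08 with AopACT, -3.02 with PntP1 and -2.01 with both, beside -2.44 with Foxo in the same fit. CG17192 fell by 2.48 on the log2 scale on average, but its value with AopACT+PntP1 was 0.07. MFS1 fell by 2.40, 2.22 and 3.04 on the log2 scale with AopACT, PntP1 and AopACT+PntP1. Diedel3, lncRNA:CR44310 and CG1946 had mean log2 fold changes of -2.54, -1.83 and -1.64 without Foxo, all called (edgeR adjusted p up to 6.57e-05). For these 6 genes the difference between the responses was not called (edgeR adjusted p = 1.0 for each), nor was it for GstD9, on the higher side, which had a log2 fold change of 1.46 without Foxo (edgeR adjusted p = 3.56e-05). The differences and their SE were -0.07 ± 0.39 for CG12374, 0.05 ± 0.40 for CG17192, 0.47 ± 0.45 for MFS1 and 0.62 ± 0.36 for GstD9.

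**Figure D4:**
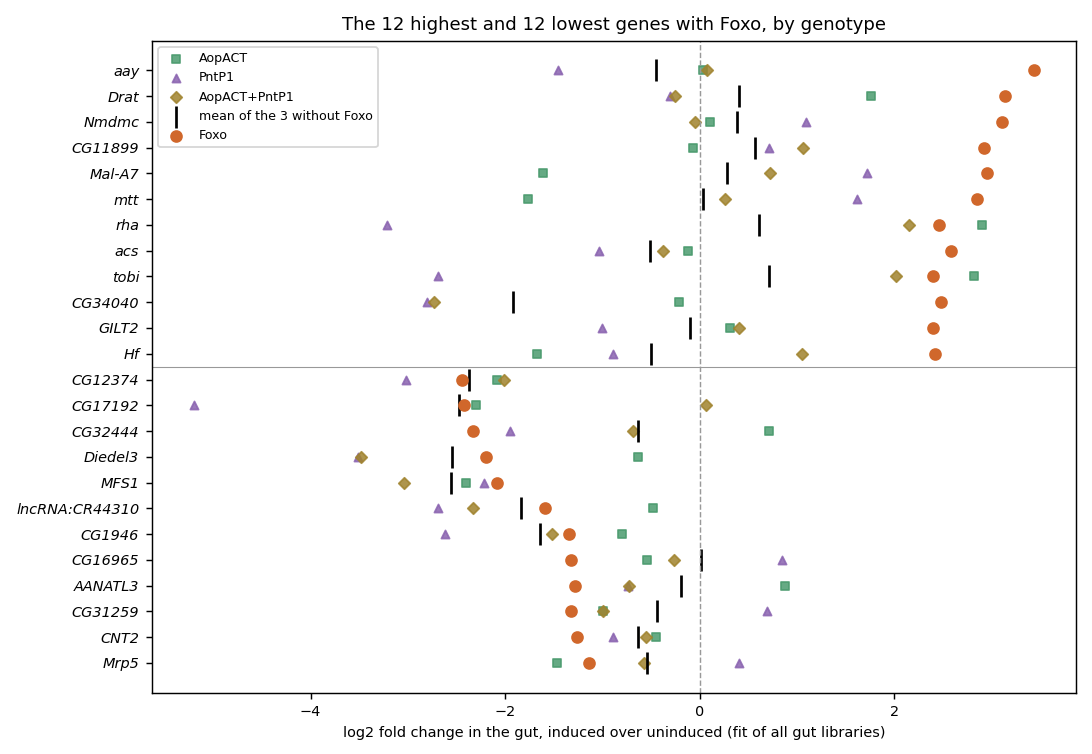
Log2 fold change, induced over uninduced gut, of the 12 highest and 12 lowest genes with Foxo, in Foxo flies (orange circles), in AopACT, PntP1 and AopACT+PntP1 flies (squares, triangles, diamonds) and as the mean of those 3 genotypes (black bars), from the fit of all gut libraries. Foxo stands apart from the mean for aay (3.44 against -0.45) but not for CG12374 (-2.44 against -2.37).

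The difference itself, the Foxo response minus the mean response of the genotypes without Foxo, was called for 54 of 9270 genes (0.583%). Of the 12 highest genes it was called for 8, a count that is favoured by their choice for a large fold change in the same Foxo libraries. Its p was lowest for aay, with a difference of 3.89 ± 0.37 SE (edgeR adjusted p = 5.85e-07), where the mean response without Foxo was -0.45. That mean held 0.04 in AopACT, -1.46 in PntP1 and 0.08 in AopACT+PntP1 flies. CG11899 differed by 2.36 ± 0.27 SE (edgeR adjusted p = 1.15e-05), although it was called higher without Foxo as well (0.57, edgeR adjusted p = 0.0354), with values of 0.71 in PntP1, 1.06 in AopACT+PntP1 and -0.07 in AopACT flies. The difference for foxo was 3.14 ± 0.36 SE (edgeR adjusted p = 1.26e-05), and endogenous foxo was lower on average in the induced flies without the transgene (-0.79, edgeR adjusted p = 0.0339). By genotype it was -0.31 in AopACT, -1.27 in PntP1 and -0.78 in AopACT+PntP1 flies. CG34040 differed by 4.40 ± 0.64 SE (edgeR adjusted p = 6.22e-04). Its mean of -1.92 without Foxo came mostly from the PntP1 genotypes, with -0.21 in AopACT, -2.80 in PntP1 and -2.73 in AopACT+PntP1 flies. acs, Mal-A7, GILT2, Drat and Hf differed by 3.10, 2.68, 2.50, 2.73 and 2.93 (edgeR adjusted p between 0.00635 and 0.0434). In AopACT, PntP1 and AopACT+PntP1 flies Drat was at 1.76, -0.31 and -0.25, Mal-A7 at -1.61, 1.72 and 0.73, and Hf at -1.67, -0.89 and 1.05. Thus the Drat mean hides a higher value with AopACT, where guts had 28, 45 and 46 CPM uninduced and 221 and 64 CPM induced. Against AopACT alone the Drat difference was not called. Among the 12 lowest genes the difference was called only for CG16965, at -1.34 ± 0.32 SE (edgeR adjusted p = 0.0651). The serine proteases Jon74E and Jon25Biii, higher with Foxo by 0.68 and 0.99, had means of -1.97 and -1.60 without it, and for both the difference was called. In AopACT, PntP1 and AopACT+PntP1 flies Jon74E was at -2.03, -1.88 and -1.98, and Jon25Biii at -0.28, -3.05 and -1.47. The count fell to between 28 and 37 when a gut Foxo library was left out and was 35 without the block term.

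Set against AopACT alone, the Foxo response was called different for 17 genes (0.183%). CG11899 differed by 3.0 ± 0.34 SE and aay by 3.40 ± 0.46 SE (edgeR adjusted p = 3.60e-05 and 2.30e-04), and for both the AopACT response was close to 0 (-0.07 and 0.04). The maltase genes went in opposite directions by value, Mal-A7 with 2.96 under Foxo and -1.61 under AopACT (difference 4.57 ± 0.69 SE, edgeR adjusted p = 0.00118), and Mal-A8 with a difference of 2.96 ± 0.49 SE (edgeR adjusted p = 0.00448). In AopACT flies Mal-A7 was at 258, 269 and 156 CPM uninduced and 86.7 and 44.1 CPM induced. CG6403 had the largest difference of the 17, 5.52 ± 0.71 SE (edgeR adjusted p = 1.59e-04), with 1.84 under Foxo and -3.68 under AopACT. Hf (4.09) and AANATL3 (-2.16) differed as well (edgeR adjusted p = 0.0762 and 0.0340). For tobi the values were 2.40 under Foxo and 2.82 under AopACT, with a difference of -0.42 ± 0.80 SE that was not called (edgeR adjusted p = 1.0). Leaving out gut Foxo induced replicate 3 lowered the count to 10.

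The fat body of Foxo flies served as the other tissue in which the driver acts (6 libraries, 3 and 3). In it foxo was at 66.5, 51.3 and 90.5 CPM uninduced and 80.4, 50.2 and 38.0 CPM induced, so the groups overlap and the transgene is not visible as a rise. aay was at 246, 378 and 326 CPM and then 327, 143 and 238 CPM, and CG11899 at 159.8, 207 and 220.2 CPM and then 124, 78.6 and 114 CPM. In a joint fit of the 12 libraries the gut response minus the fat body response was called for 1 of 9050 genes (0.0110%), CG11899, with a difference of 3.87 ± 0.43 SE (edgeR adjusted p = 0.0679). At an unadjusted p under 0.05 there were 1016 genes. Drat, aay and acs followed with differences of 4.06 ± 0.53, 3.89 ± 0.54 and 4.03 ± 0.58 SE that did not pass (edgeR adjusted p = 0.120, 0.132 and 0.132). Every left-out gut library ended the CG11899 call, and without the block term 15 genes were called. The joint fit called only 4 genes for the gut response and 1 for the fat body response. Of the genes called in the gut by the 6-library fit none was called in its fat body part. With so few calls this does not show whether the tissues share a response. Gut transcripts in the fat body libraries moved with induction: the enterocyte markers had a median log2 fold change of -1.85 there and the Jonah and trypsin genes of -1.87, and their part in the difference was not tested.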

How the data were processed

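Gut and fat body RNA was made into paired-end libraries with unique molecular identifiers, and libraries had been kept by RNA yield and integrity. The authors removed duplicate molecules with Je, aligned reads with HISAT2 to release 6 of the fly genome and counted them per gene with featureCounts, and the deposited values are raw counts per gene, not normalized. The sources used here do not give the strand setting. Groups came from the sample labels and blocks from the deposited table. Gene names and positions came from the Ensembl annotation of BDGP6, in which 10287 of 10366 gut gene IDs were found. Promoter and protein sequences were not analysed here.

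Genes were kept by filterByExpr at a minimum count of 10, scaled by TMM and tested with edgeR 4.0.16 (quasi-likelihood, R 4.3.3), with the block as a term and Benjamini-Hochberg adjustment, and called at an adjusted p under 0.1, two-sided. The 6-library fit has 2 residual degrees of freedom. Differences from other genotypes came from one fit of all 36 gut libraries, and the difference from fat body from one fit of 12 libraries. Alternatives were all gut libraries, no block, RLE scaling, DESeq2 1.42.0, limma 3.58.1 voom, no filter, a minimum count of 50 and each library left out. The code was tested on simulated counts. Total counts lay between 1598120 and 6145550 over all gut libraries.

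The block was a term because the study's joint model has it. Induced and uninduced libraries of the same block deviated together, with correlations of 0.577 (A), 0.448 (C) and 0.166 (D), each over 0.1. Uninduced D with induced C gave 0.229, above the D pair, so this check does not set the pairing in block D apart. The other pairs from unlike blocks lay between -0.537 and -0.052. Deviations were taken from group means, so positive values in pairs of the same block push the others to negative values. Without the replicate block 51 genes were called in place of 354.

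The genes named are foxo and the qRT-PCR genes, the 12 highest and 12 lowest fold changes called in both fits (mean of at least 5 CPM, groups not overlapping), up to 4 members of each list by p, called members of pathway lists under 20 genes, and the 4 lowest p of each difference test. Jon74E, Mal-A3, Mal-A4, Mal-A5, Amyrel, CG33080, crc, Lsp2, Fbp2 and Send1 are named outside these rules and were chosen after their values were seen. Members and lists were chosen with earlier results of these data known, and 2 lists (endoplasmic reticulum folding, metallothioneins) were added after the called genes had been seen.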

Additional observations from a re-analysis of the deposited data

Results flagged for a closer look

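The results below were picked out because the response to Foxo differed from the response of another group by a test of the difference itself (edgeR quasi-likelihood). Against the mean of the genotypes without Foxo 54 genes differed. Among the named ones the differences in log2 fold change were 3.89 for aay, 2.36 for CG11899, 3.14 for foxo, 4.40 for CG34040, 3.10 for acs, 2.67 for CG6403, 2.68 for Mal-A7, 2.50 for GILT2, 2.73 for Drat, 2.93 for Hf, 2.65 for Jon74E, 2.59 for Jon25Biii, 1.74 for Cyp4e1, 1.73 for GstT4, 1.91 for Cyp6g2, 1.58 for Mal-A8, 0.90 for MRP and -1.34 for CG16965. Against AopACT 17 genes differed, with 3.0 for CG11899, 5.52 for CG6403, 3.40 for aay, 4.57 for Mal-A7, 2.67 for foxo, 2.96 for Mal-A8, 2.27 for Cyp4e1, 2.72 for Jon74E, -2.16 for AANATL3 and 4.09 for Hf. The gut response differed from that of the fat body for 1 gene, CG11899, by 3.87. Groups of 3 libraries are too small for a search for single outlying libraries.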

How the results depend on the processing

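The count of 354 genes was 47 with all gut libraries, 64 with all gut libraries but the 2 of high mitochondrial share (a setting chosen after seeing the data), 51 without the replicate block, and between 240 and 597 with single libraries left out. It stayed within 1.5 times of 354 with RLE scaling (356), DESeq2 (238), voom (363), no filter (390) and a minimum count of 50 (336). DESeq2 shared 221 of its calls with the 354. The difference from the genotypes without Foxo (54 genes) was called for 35 without the replicate block and for 28 to 37 with single gut Foxo libraries left out. The difference from AopACT (17 genes) was called for 10 to 16 with single libraries left out. The difference from the fat body (1 gene) was called for 15 without the replicate block and for 0 to 0 with any single library left out. The causes were not tested. The foxo log2 fold change lay between 2.26 and 2.43 and was called in every setting. Of 89 results for named genes 57 lost the call with all gut libraries, 59 without the replicate block, 13 with DESeq2 and between 2 and 20 with a library left out. None reversed. Low genes such as Nmdmc and Hf rest on few counts per library.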
